A study of Mus musculus with 23 samples.

Results

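DC1a and DC1b cells from the spleens of wild type Balb/C mice labelled TLI were compared by RNA sequencing. The comparison used all TLI libraries whose labels name either population, 4 of DC1a and 4 of DC1b, out of 23 libraries in the series. The series also holds DC2 and DC3 cells, the same populations from untreated mice, and the study's purpose was to separate subsets of mouse dendritic cells and to compare what they do. TLI is usually short for total lymphoid irradiation, which the labels leave unsaid, and they give no dose, age or time after treatment. DC1a cells were sorted as CD8hi CD172- and DC1b cells as CD8Int CD172+, in both cases after a gate on spleen dendritic cells that, as the study describes it for untreated mice, kept MHC class II+ CD11c+ cells and removed cells positive for lineage markers, among them CD3, B220, CD56 and Gr-1. Each library came from cells of a numbered pool of mice, and both populations of a pool carry the same number. TLI pools 1 and 2 are in batch 1 by their labels, together with the 2 untreated pools, and TLI pools 3 and 4 are in batch 2. The 4 untreated DC1a and DC1b libraries were used only to set the same difference beside that after TLI.

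Conventional dendritic cells of type 1 (cDC1) take up dead cells and present their antigens on MHC class I to CD8 T cells. They depend on the transcription factors IRF8 and BATF3 and carry XCR1, CLEC9A and, in the spleen, CD8 and CD207. Conventional dendritic cells of type 2 (cDC2) carry CD172a, the product of Sirpa, and share many transcripts with monocytes, so that a gate on CD8 and CD172 draws its line between genes of these lineages.

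The 8 libraries held between 23074740 and 36997890 estimated counts. Correlations of log2 CPM (counts scaled to a common library total, per 1e6) ran from 0.73 to 0.894 between DC1a libraries and from 0.63 to 0.785 between DC1b libraries. Between a DC1a and a DC1b library they ran from 0.561 to 0.786, so that the ranges overlapped. The sorting genes followed the labels with an exception. Sirpa stood at 0.0722 to 0.774 CPM in the 4 DC1a libraries and at 155, 133, 5.56 and 7.23 CPM in DC1b of pools 1 to 4, lower in batch 2 than in batch 1. Cd8a was at 637, 835, 361 and 369 CPM in DC1a and at 321, 325, 86.2 and 0.361 CPM in DC1b of pools 1 to 4. The library labelled DC1b of pool 4 thus held almost no Cd8a RNA although its label gives intermediate CD8, and counts are given below with and without it. Neither Sirpa (log2 fold change 6.50 ± 1.68 SE, adjusted p = 0.122) nor Cd8a (-2.05 ± 1.18 SE, adjusted p = 0.558) passed the threshold of 0.05 in the quasi-likelihood test of edgeR, adjusted after Benjamini and Hochberg, which is the test behind every adjusted p below.

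Genes of other cells moved with some libraries. The 5 erythroid markers summed to 75109 and 14568 CPM in DC1a and to 41439 and 14042 CPM in DC1b of pools 1 and 2, against 218 and 102 CPM in DC1a and 1315 and 4530 CPM in DC1b of pools 3 and 4. They were higher in batch 1 in both populations and, within batch 2, higher in DC1b, and 0 of 11 listed erythroid genes passed the threshold. The 4 plasma cell markers, mainly Igkc, summed to 7620, 540, 1443 and 5203 CPM in DC1a and to 31636, 6326, 60299 and 47275 CPM in DC1b, higher in DC1b in every pool. Sdc1, a plasma cell surface marker, had no count in any DC1a library or in DC1b of pool 2 and was too low to be tested. The B cell markers summed to 9.04 to 40.7 CPM in DC1a and 73.8 to 104 CPM in DC1b. The T cell markers reached 172 CPM and the natural killer markers 167 CPM, both highest in batch 1. The part of these cells in the differences below was not tested, and in sorted bulk cells a smaller number of cells of a type and less RNA per cell cannot be told apart.

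DC1b cells carried less RNA of cDC1 genes than DC1a cells and more RNA of neutrophil, monocyte and cDC2 genes. Of 13761 genes tested, 261 passed the threshold (1.90%), 231 of them higher in DC1b (1.68%) and 30 lower (0.218%). The counts of list members given below stand against these shares. A difference of the same sign in all 4 pools was common in these data, with 1545 genes (11.2%) higher and 1580 genes (11.5%) lower in DC1b in every pool. How many of all genes had groups that did not overlap was not counted. A lack of overlap named below therefore describes the values of that gene only. Among the genes past the threshold the direction held in all 4 pools for 229 of the 231 higher genes and for 30 of the 30 lower genes. They passed in a fit over these same pools, so that this count is largely set by the selection. With the pool as a block 99 genes passed, all of them higher, of which 97 were among the 261. Without the library labelled DC1b of pool 4, 110 genes passed, 109 higher and 1 lower. Of the 30 lower genes, 0 passed with the pool as a block and 0 passed in all of the fits that left out 1 library. The split of the calls was 88.5% higher, and 64.5% of 1280 calls were higher in DESeq2.

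**Figure D1:**
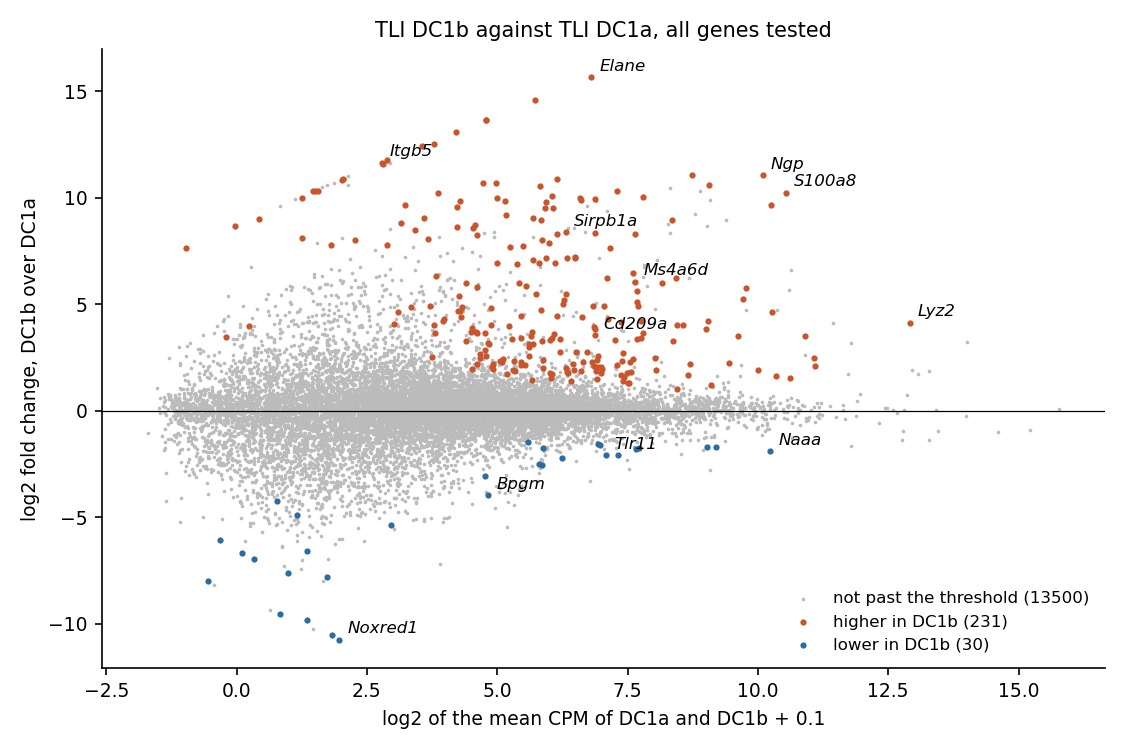
Every gene tested, with the log2 of its mean CPM over both populations plus 0.1 on the horizontal axis and the log2 fold change of DC1b over DC1a in the TLI pools on the vertical axis; 231 genes past the threshold lie above 0 and 30 below. The straight upper edge holds genes without a count in any DC1a library, such as Elane and Itgb5, for which the fitted value is no bound on the true fold.

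The cDC1 genes were lower in DC1b as a list. Of 30 listed members, 30 were tested, 7 fell past the threshold (Xcr1, Itgae, Naaa, Tlr11, Cd207, Gpr141b and Hepacam2), 1 rose (Bcl6), and 24 were lower in DC1b in all 4 pools. The median log2 fold change of the list was -1.25, against 0.05 over all genes tested. With the pool as a block 0 of the 30 passed, and without the library labelled DC1b of pool 4 only Bcl6 did. Over the fits that each left out 1 library, between 0 (without DC1a of pool 2, 3 or 4 or DC1b of pool 4) and 4 (without DC1b of pool 3) members fell past the threshold, while the median stayed between -1.50 and -1.24.

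Xcr1, the receptor of the chemokine XCL1 through which cDC1 meet CD8 T cells, had 601, 1069, 707 and 816 CPM in DC1a and 158, 162, 366 and 290 CPM in DC1b of pools 1 to 4. Every DC1b library lay below every DC1a library, and the log2 fold change was -1.72 ± 0.33 SE (adjusted p = 0.0453). Naaa, an enzyme that hydrolyses fatty acid ethanolamides, was the most abundant of the 7, with 1977, 3258, 1237 and 1272 CPM in DC1a and 439, 772, 431 and 275 CPM in DC1b. It fell by 1.89 on the log2 scale (SE 0.30, adjusted p = 0.0231; 0.0524 with the pool as a block). Cd207, the langerin lectin, had 1286, 1444, 475 and 470 CPM in DC1a and 342, 409, 203 and 83.9 CPM in DC1b. It was higher in batch 1 than in batch 2 in both populations and lower in DC1b in each pool, with a log2 fold change of -1.71 ± 0.30 SE (adjusted p = 0.0363).

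Tlr11, a Toll-like receptor for profilin of protozoa, had 125 to 310 CPM in DC1a and 34.5 to 61.8 CPM in DC1b, and the 2 groups did not overlap (log2 fold change -2.10 ± 0.38 SE, adjusted p = 0.0385). Itgae, the CD103 chain of an integrin that binds E-cadherin, had 52.0 to 98.5 CPM in DC1a and 14.9 to 35.9 CPM in DC1b (log2 fold change -1.45, adjusted p = 0.0441). For the CD103 protein the study reported the opposite order, with more on DC1b than on DC1a cells of wild type BALB/c spleen. The other lower members were Gpr141b at -1.74 and Hepacam2 at -1.81 on the log2 scale. Each of these also lay lower in all 4 pools.

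Bcl6, a transcriptional repressor that cDC1 use, went against the list. It had 9.56, 8.27, 48.8 and 50 CPM in DC1a and 27.7, 26.2, 206 and 140 CPM in DC1b of pools 1 to 4, so that both populations were higher in batch 2, DC1b was higher in every pool, and the groups overlapped across batches. The log2 fold change was 1.78 (adjusted p = 0.0161; 0.0950 with the pool as a block). In the untreated pools Bcl6 was at 35.9 and 34.3 CPM in DC1a and at 17.1 and 12.2 CPM in DC1b.

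Several defining cDC1 factors and receptors were lower in DC1b in each pool but did not pass. Irf8 had 684, 944, 713 and 762 CPM in DC1a and 238, 350, 209 and 65.6 CPM in DC1b, with no overlap (log2 fold change -1.87 ± 0.43 SE, adjusted p = 0.0827). Batf3 had 169 to 207 CPM in DC1a and 50.3 to 134 CPM in DC1b (adjusted p = 0.152). Clec9a, a receptor for actin of dead cells, had 361, 373, 680 and 682 CPM in DC1a and 204, 137, 195 and 107 CPM in DC1b (adjusted p = 0.0725). All 4 DC1b libraries of each of these genes lay below the lowest DC1a library. Btla, an inhibitory receptor of the CD28 family, was at 247 to 420 CPM in DC1a and at 127, 96.0, 25.6 and 6.96 CPM in DC1b of pools 1 to 4 (adjusted p = 0.115). Cd24a (adjusted p = 0.176), Ly75 (0.245), Havcr2 (0.439) and Cd1d1 (0.663) had negative log2 fold changes that did not pass the threshold. For CD1d the study reported more protein on DC1b than on DC1a cells of wild type BALB/c spleen.

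**Figure D2:**
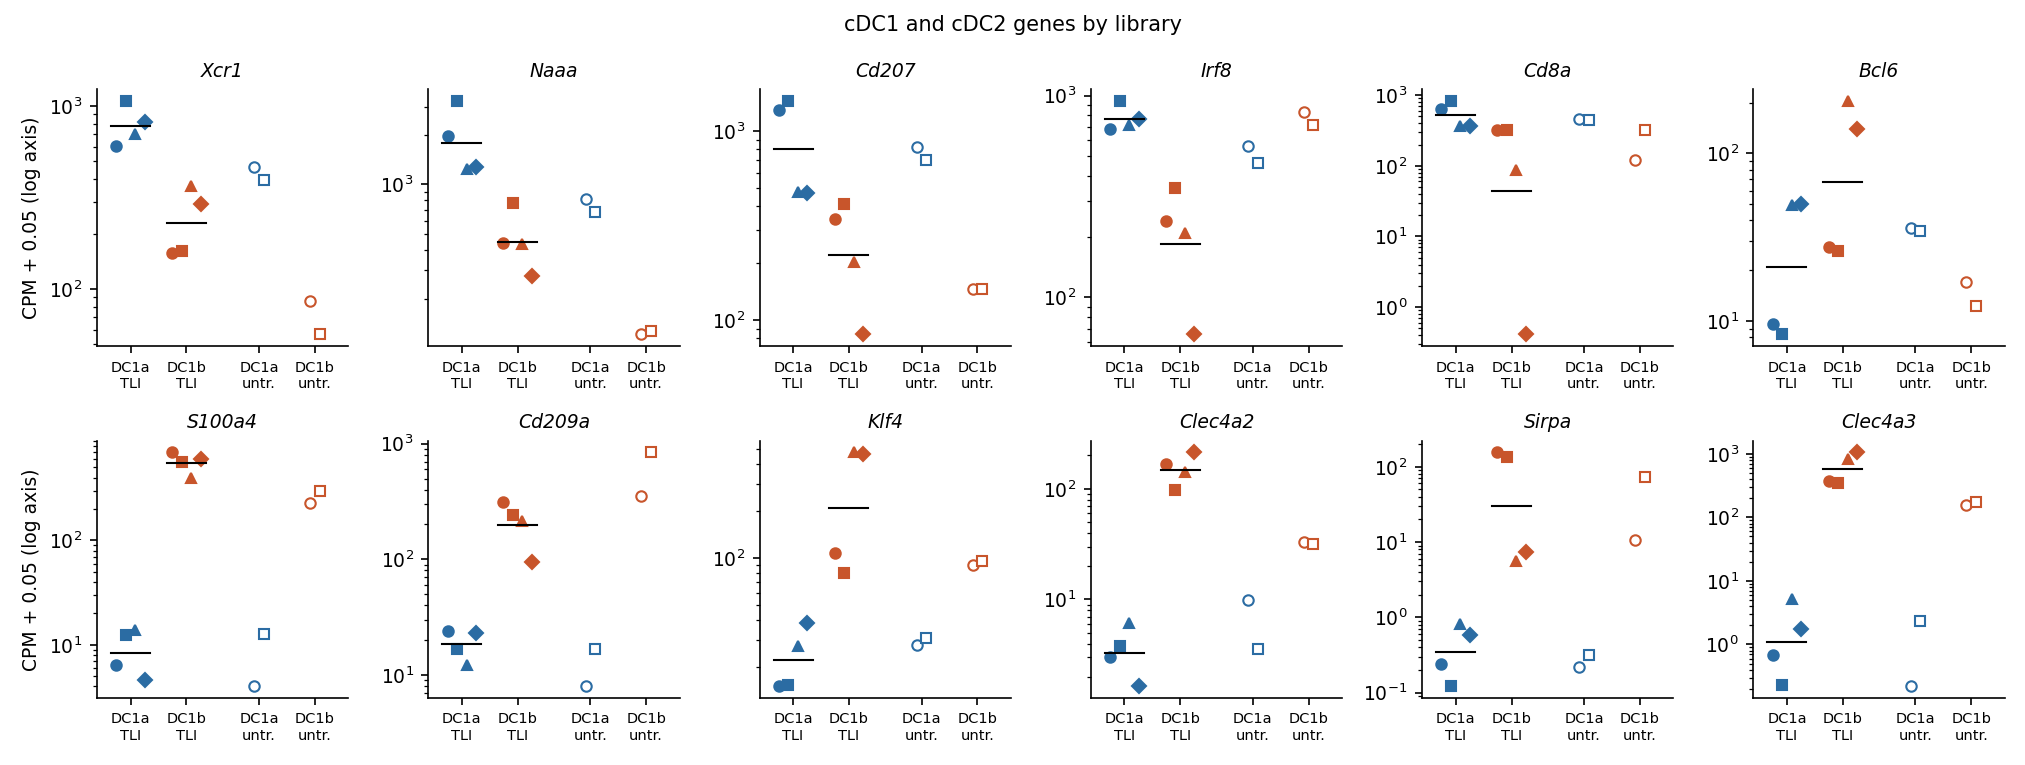
Levels of 12 genes in CPM plus 0.05 on log axes, by library, with filled symbols for TLI, open symbols for untreated pools (untr.), blue for DC1a and orange for DC1b; circles, squares, triangles and diamonds are pools 1 to 4, and black lines are geometric means of the 4 TLI libraries. Xcr1, Naaa, Cd207 and Irf8 lie lower in TLI DC1b than in TLI DC1a without overlap, Cd8a is at 0.361 CPM in DC1b of pool 4, and S100a4, Cd209a, Klf4, Clec4a2, Sirpa and Clec4a3 lie higher in DC1b.

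MHC class II genes leaned the same way without passing. Of 15 listed members, 12 were lower in DC1b in all 4 pools, with a median log2 fold change of -0.97, and 0 fell past the threshold. H2-Ab1, the beta chain of I-A, had 18957, 23568, 7991 and 7451 CPM in DC1a and 4731, 11193, 3208 and 2279 CPM in DC1b (log2 fold change -1.38 ± 0.33 SE, adjusted p = 0.0944). The batches differed in both populations, and DC1b was lower within each. Ctss, the protease cathepsin S that trims the invariant chain, was the exception and rose, from 705 to 1043 CPM in DC1a to 1873 to 3092 CPM in DC1b (log2 fold change 1.52, adjusted p = 0.0203; 0.102 with the pool as a block).

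The cDC2 genes rose. Of 23 listed members 20 were tested, 6 were higher past the threshold and 0 lower, and 14 were higher in all 4 pools; 4 of the 20 passed with the pool as a block and 4 passed without the library labelled DC1b of pool 4. The median log2 fold change was 3.28. S100a4, a calcium-binding protein of motile cells, had 6.31, 12.3, 13.7 and 4.54 CPM in DC1a and 697, 565, 397 and 606 CPM in DC1b (log2 fold change 6.01, adjusted p = 0.00153; 0.0131 with the block). Cd209a, a C-type lectin, had 12.2 to 23.7 CPM in DC1a and 312, 243, 214 and 94.9 CPM in DC1b (log2 fold change 3.54, adjusted p = 0.00559). Neither gene overlapped between the populations.

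Klf4, a transcription factor of cDC2 and monocytes, had 15.1, 15.3, 27.3 and 38.3 CPM in DC1a and 107, 80.1, 475 and 463 CPM in DC1b of pools 1 to 4 (log2 fold change 3.31, adjusted p = 0.00286). Clec4a2, an inhibitory lectin, had 1.60 to 6.13 CPM in DC1a and 97.8 to 213 CPM in DC1b (log2 fold change 5.49, adjusted p = 0.00241). Clec4a4 and Clec7a were the other 2 that rose. The cDC2 genes that define the lineage in flow cytometry were less even: Itgam (CD11b) had 24.8, 13.0, 13.5 and 0.296 CPM in DC1b and at most 0.372 CPM in DC1a (adjusted p = 0.146). Irf4, the factor of cDC2, had 24.0 and 42.6 CPM in DC1b of batch 1 and 0.785 and 1.97 CPM in DC1b of batch 2, against 1.55 to 4.11 CPM in DC1a (adjusted p = 0.611). Cd4 stayed at 1.74 to 17.6 CPM in DC1b.

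Genes of neutrophils and their granules rose. Of 14 listed members 11 were tested, and 8 were higher past the threshold, S100a8, S100a9, Ngp, Camp, Elane, Csf3r, Mmp8 and Chil3. The median log2 fold change was 10.25; 6 of the 11 passed with the pool as a block, 5 passed without the library labelled DC1b of pool 4, and 5 without DC1a of pool 1 and 4 without DC1a of pool 2, and 6 or 7 without any other single library. The 6 neutrophil markers summed to 6.65, 9.35, 12.4 and 7.33 CPM in DC1a and to 21789, 1240, 1846 and 9932 CPM in DC1b of pools 1 to 4. Every DC1b library stood above every DC1a library, and the DC1b libraries differed widely among themselves, with pool 1 highest and pool 2 lowest.

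Elane, the neutrophil elastase of azurophil granules, had no count in any DC1a library and 537, 71.8, 56.3 and 223 CPM in DC1b (adjusted p = 0.0211, and 0.0333 with the block). Its mean over the 4 DC1b libraries was at least 2181-fold above a floor of 3 counts per DC1a library. This floor covers counting error only, and the fold is no bound for a single pool. Ngp, a granule protein of immature neutrophils, had 0 to 1.61 CPM in DC1a and 7864, 335, 107 and 415 CPM in DC1b (adjusted p = 0.0118; 0.0544 with the block). S100a8, a subunit of calprotectin, had 1.55 to 3.9 CPM in DC1a and 4869, 255, 1136 and 5525 CPM in DC1b (log2 fold change 10.25, adjusted p = 0.00603). Csf3r, the receptor of granulocyte colony-stimulating factor, rose from at most 0.0929 CPM in DC1a to 8.43, 17.1, 34.2 and 15.2 CPM in DC1b (adjusted p = 0.0118). Not all members rose. Ltf, lactoferrin of specific granules, had 141 CPM in DC1b of pool 1 and at most 0.756 CPM in the other DC1b libraries (adjusted p = 0.566), and Ly6g, which carries an epitope of the Gr-1 antibody used in the gate, had 113 CPM in DC1b of pool 1 and 3.72, 0.121 and 0.0986 CPM in those of pools 2 to 4. Both genes were thus high in 1 DC1b library.

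**Figure D3:**
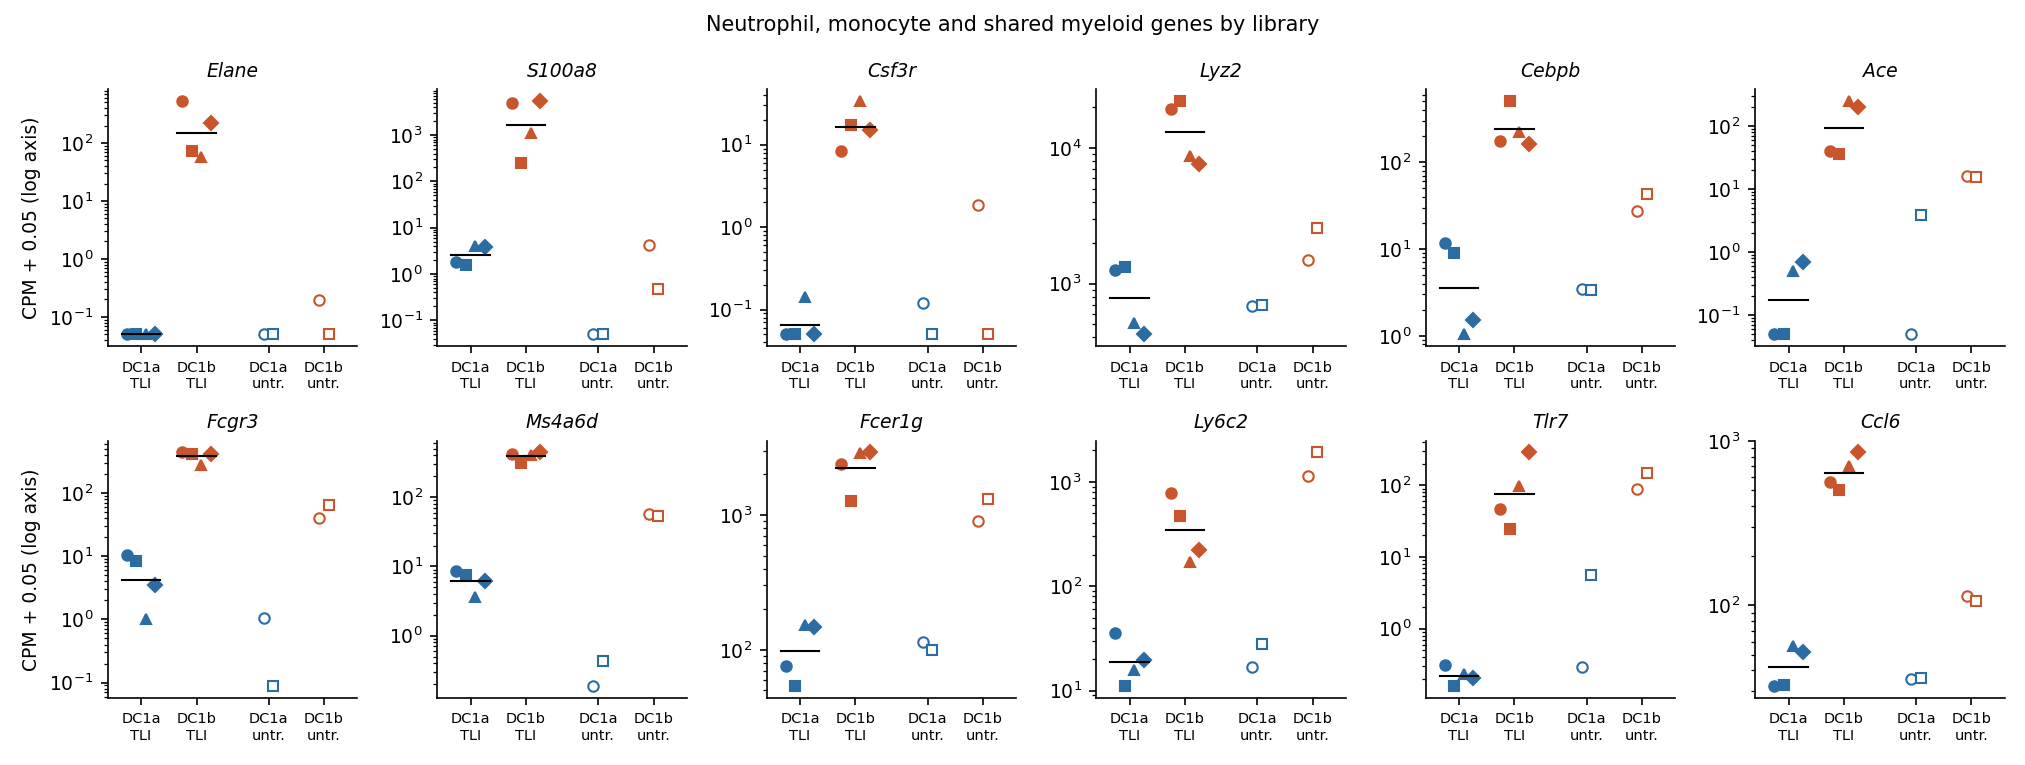
Levels of 12 myeloid genes in CPM plus 0.05 on log axes, by library, drawn as in the plot of cDC1 and cDC2 genes (filled TLI, open untreated, blue DC1a, orange DC1b, symbol shapes for pools, lines for geometric means of TLI libraries). All 12 genes lie higher in every TLI DC1b library than in any TLI DC1a library, and in the untreated DC1b libraries Elane is at 0.144 and 0 CPM and S100a8 at 4.23 and 0.423 CPM.

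Among all genes past the threshold, the 12 largest increases of protein coding genes with at least 5 CPM and the same direction in all 4 pools were Elane, Wfdc21, C3, Fcnb, Clec4d, Mmp8, Arhgef10l, Cd300ld3, Itgb5, Wfdc18, Ngp and Chil3. The first 10 had no count in any of the 4 DC1a libraries, and their DC1b means were at least 133-fold (Itgb5) to 2181-fold (Elane) above the same floor. These folds, and those of C3 and Fcnb below, describe the mean of the 4 DC1b libraries and are no bound for a single pool. C3, the central component of complement, had 52.8, 81.1, 71.1 and 16.2 CPM in DC1b (at least 543-fold higher, adjusted p = 0.0120). Fcnb, a ficolin of neutrophil granules, had 130, 5.73, 30.9 and 54.0 CPM in DC1b (at least 541-fold higher, adjusted p = 0.0441). Itgb5, an integrin chain that pairs with alpha V, was the most even, at 17.0, 12, 12.8 and 12.5 CPM in DC1b. With the pool as a block 3 of the 12 passed (Elane, Wfdc21 and Chil3), and 0 of the 12 passed in all of the fits that left out 1 library.

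Promoters of 4 genes that rose and 3 that fell are shown, chosen from the neutrophil and cDC1 genes that passed and, for C3, from the largest increases. The sequences are the 200 bases before the start site in RefSeq, build GRCm38.p6, on the strand of the gene. Capitals mark matches, on either strand, to 4 sets of letters that binding motifs of myeloid and cDC1 factors share: TTGCNNAA for C/EBP factors, GAGGAAGT for PU.1, GAAA, any 2 bases and GAAA again for interferon regulatory factors and TGANTCA for AP-1 factors.
Elane, chr10:79886112-79886311, plus strand: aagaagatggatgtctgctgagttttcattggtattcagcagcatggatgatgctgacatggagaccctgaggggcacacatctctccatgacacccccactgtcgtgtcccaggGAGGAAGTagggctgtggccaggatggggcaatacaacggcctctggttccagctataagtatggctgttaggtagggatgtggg
S100a8, chr3:90668871-90669070, plus strand: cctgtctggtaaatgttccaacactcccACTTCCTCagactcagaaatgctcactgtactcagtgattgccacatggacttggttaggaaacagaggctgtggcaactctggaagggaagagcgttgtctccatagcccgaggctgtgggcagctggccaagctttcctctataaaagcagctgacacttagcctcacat
Ngp, chr9:110419608-110419807, plus strand: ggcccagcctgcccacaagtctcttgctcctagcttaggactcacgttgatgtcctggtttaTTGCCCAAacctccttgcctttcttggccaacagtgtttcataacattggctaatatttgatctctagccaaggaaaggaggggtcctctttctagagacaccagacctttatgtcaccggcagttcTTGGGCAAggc
C3, chr17:57228137-57228336, minus strand: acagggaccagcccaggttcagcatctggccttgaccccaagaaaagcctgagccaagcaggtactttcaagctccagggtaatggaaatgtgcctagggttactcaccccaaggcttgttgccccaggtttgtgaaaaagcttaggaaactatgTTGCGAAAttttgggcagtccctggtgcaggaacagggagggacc
Xcr1, chr9:123862030-123862229, minus strand: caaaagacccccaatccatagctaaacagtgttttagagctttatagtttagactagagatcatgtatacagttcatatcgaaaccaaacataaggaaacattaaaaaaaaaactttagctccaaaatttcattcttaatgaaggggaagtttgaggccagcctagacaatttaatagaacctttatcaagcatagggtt
Cd207, chr6:83677858-83678057, minus strand: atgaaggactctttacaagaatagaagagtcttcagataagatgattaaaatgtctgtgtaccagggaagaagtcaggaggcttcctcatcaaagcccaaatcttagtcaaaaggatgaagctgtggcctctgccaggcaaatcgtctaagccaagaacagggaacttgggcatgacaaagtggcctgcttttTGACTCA
Tlr11, chr14:50357714-50357913, plus strand: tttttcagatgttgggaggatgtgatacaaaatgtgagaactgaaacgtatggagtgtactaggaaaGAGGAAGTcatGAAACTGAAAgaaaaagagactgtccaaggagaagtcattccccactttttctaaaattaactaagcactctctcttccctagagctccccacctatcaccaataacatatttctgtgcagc
Over windows from 250 bases before to 50 bases after the start, the C/EBP letters stood in 3 of the 8 neutrophil genes that rose and in 0 of the 6 cDC1 genes that fell and had a promoter in the table, against 10.8% of 32851 windows. The PU.1 letters stood in 3 of the 8 and 1 of the 6 (3.20% of windows), the interferon regulatory factor letters in 0 of the 8 and 2 of the 6 (3.44%), and the AP-1 letters in 0 of the 8 and 1 of the 6 (7.81%). A match describes the letters in these windows only, and in the sequences shown no matches to different motifs overlapped. Every rising gene shown holds a match, but the neutrophil genes Chil3, Csf3r and Camp, which also rose, held none in their windows. The sequences shown are thus no measure of how often the letters occur.

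Monocyte and macrophage genes rose as well. Of 16 listed members 15 were tested, and 6 were higher past the threshold (Ly6c2, Adgre1, C1qc, Cd68, Fcgr1 and Ace) with a median log2 fold change of 4.47; 12 were higher in all 4 pools, 4 passed with the pool as a block and 5 without the library labelled DC1b of pool 4, but 2 without DC1b of pool 1 or without DC1a of pool 2 and 3 without DC1a of pool 3. The 8 markers summed to 25.3 to 60.7 CPM in DC1a and to 2314, 1615, 945 and 666 CPM in DC1b. Ace, which marks patrolling monocytes, had at most 0.658 CPM in DC1a and 40.8, 35.8, 254 and 204 CPM in DC1b (log2 fold change 9.50, adjusted p = 0.00153; 0.0176 with the block). Ly6c2, the antigen of classical monocytes, had 35.5, 11, 15.6 and 19.8 CPM in DC1a and 788, 466, 171 and 224 CPM in DC1b (log2 fold change 4.20, adjusted p = 0.00795). The batches ran in opposite order for them, Ace higher in batch 2 and Ly6c2 in batch 1. C1qc, a chain of complement C1q made by macrophages, had 541 and 305 CPM in DC1b of batch 1 and 65.3 and 22.3 CPM in DC1b of batch 2, against at most 4.78 CPM in DC1a (log2 fold change 8.33, adjusted p = 0.0118).

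**Figure D4:**
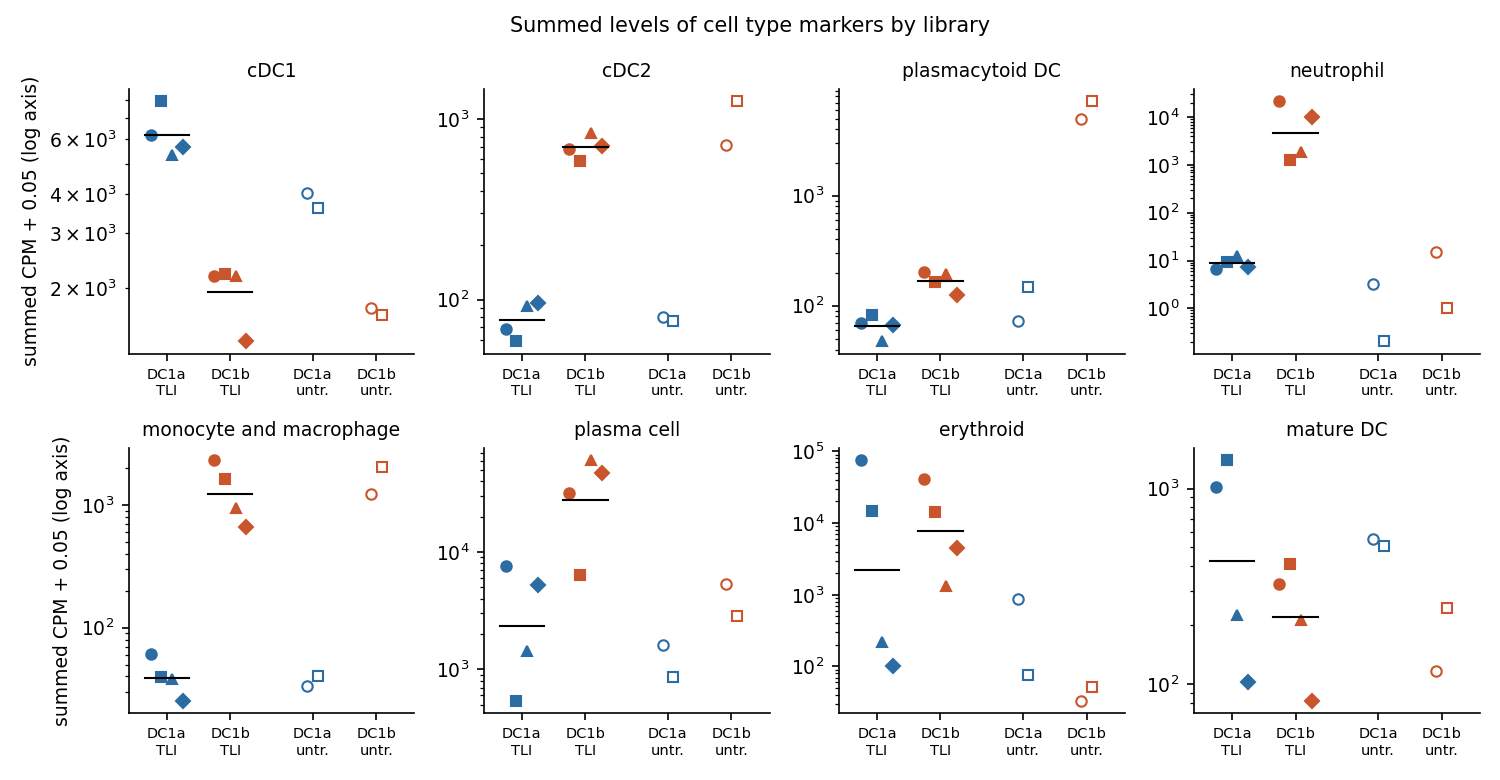
Summed CPM plus 0.05 of the markers of 8 cell types on log axes, by library (filled TLI, open untreated, blue DC1a, orange DC1b; circles, squares, triangles and diamonds for pools 1 to 4; lines for geometric means of TLI libraries). Neutrophil markers are at 1240 to 21789 CPM in TLI DC1b and at 15.2 and 0.943 CPM in untreated DC1b, plasmacytoid markers are at 125 to 204 CPM and at 4982 and 7237 CPM, and erythroid markers are higher in batch 1 in both TLI populations and, within batch 2, higher in DC1b.

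Of the 231 higher genes, 75 passed in each of the 8 fits that left out 1 library. The gene families below, and the genes named from them, were picked after their values were seen. All 4 Fc gamma receptors tested rose, as did all 3 Sirpb1 genes, 5 of 8 Ms4a genes, 6 of 10 Clec4 lectins, 4 of 9 Cd300 genes and 3 of 4 Ifitm genes, and 0 of these fell. With the pool as a block 2 of the 4 Fc gamma receptors, all 3 Sirpb1, 5 Ms4a, 4 Clec4, 3 Cd300 and 3 Ifitm genes passed. The Clec4, Sirpb1 and Ms4a genes are related copies that lie in clusters, so that reads may be split among them. Lyz2, lysozyme M of macrophages and granulocytes, had 1256, 1329, 515 and 422 CPM in DC1a and 19353, 22258, 8710 and 7615 CPM in DC1b (log2 fold change 4.14 ± 0.25 SE, adjusted p = 5.49e-04; 0.0117 with the block). Ms4a6d had 3.56 to 8.59 CPM in DC1a and 417, 312, 401 and 442 CPM in DC1b (log2 fold change 6.06 ± 0.36 SE, adjusted p = 5.49e-04). The groups did not overlap for either gene, although Lyz2 was higher in batch 1 in both populations.

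Other genes of phagocytes rose too. Fcer1g, the signalling chain of activating Fc receptors, had 53.7 to 153 CPM in DC1a and 1267 to 2914 CPM in DC1b (log2 fold change 4.63, adjusted p = 0.00149). Cybb, the catalytic chain of the phagocyte NADPH oxidase, had 2.07 to 20.2 CPM in DC1a and 295 to 1315 CPM in DC1b (log2 fold change 6.22, adjusted p = 0.00717). Cebpb, a transcription factor of granulocytes and monocytes, had 11.6, 8.92, 0.991 and 1.47 CPM in DC1a and 174, 510, 222 and 163 CPM in DC1b (log2 fold change 6.23, adjusted p = 0.00384; 0.0355 with the block). No DC1b library of these genes overlapped a DC1a library. Tlr7, an endosomal receptor for single-stranded RNA, had 0.108 to 0.261 CPM in DC1a and 46.9, 24.6, 97.8 and 287 CPM in DC1b (log2 fold change 8.95, adjusted p = 0.00237), opposite to Tlr11.

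Chemokines rose in part. Of 15 listed members tested 3 were higher past the threshold and 0 lower, and 2 passed with the pool as a block. Over all genes tested 1.68% were higher past the threshold. Ccl6, which attracts myeloid cells, had 32.1, 32.6, 56.5 and 51.8 CPM in DC1a and 560, 501, 699 and 850 CPM in DC1b (log2 fold change 4.02, adjusted p = 5.49e-04; 0.0117 with the block). Cxcl2, which attracts neutrophils, had 1.39 to 9.15 CPM in DC1a and 51.7 to 94.0 CPM in DC1b (log2 fold change 3.96, adjusted p = 0.00887; 0.0546 with the block), and Ccl9 had 3.10 to 21.6 CPM and 151 to 230 CPM (log2 fold change 4.41, adjusted p = 0.0153). Every DC1b library stood above every DC1a library for the 3 genes.

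Of 24 listed genes of plasmacytoid dendritic cells, 20 were tested and 3 rose, against 1.68% of all genes tested. They were Ly6c2, Tlr7 and Plac8, which monocytes also express. Plac8 did not pass with the pool as a block (adjusted p = 0.0665). The defining members stayed low: Siglech had no count in any of the 4 DC1a libraries, and the 10 markers summed to 47.3 to 82.6 CPM in DC1a and 125 to 204 CPM in DC1b. In DC1b of untreated pools they summed to 4982 and 7237 CPM. Tcf4, the factor of that lineage, had 25.8 to 68.5 CPM in DC1b after TLI (adjusted p = 0.127 against DC1a) and 787 and 426 CPM in DC1b of untreated pools.

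Immunoglobulin segments were higher in DC1b. They made up 1.87%, 0.145%, 0.20% and 0.691% of CPM in DC1a and 5.53%, 1.71%, 11.3% and 7.97% in DC1b of pools 1 to 4, against 1.24% and 0.780% in the untreated DC1b libraries. Of 69 segments tested 6 rose past the threshold and 0 fell, against 1.68% higher of all genes tested. Reads shared by near-identical segments leave these counts uncertain. Gm43218 and Igkv8-16 were higher in only 2 of the 4 pools, and Gm43218, Igkv8-16 and Igkv4-50 did not pass with the pool as a block (adjusted p = 0.101, 0.0938 and 0.0867). Igkv8-30, a kappa variable segment, had 0 to 1.12 CPM in DC1a and 3118, 252, 12.8 and 26.3 CPM in DC1b (adjusted p = 0.00283). DC1b of batch 1 was far above DC1b of batch 2. Jchain, which joins secreted IgA and IgM, had 79.1 to 974 CPM in DC1a and 969 to 15571 CPM in DC1b and did not pass (adjusted p = 0.166).

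The 12 largest decreases by the same rule were Noxred1, Tomm40l, Ptdss2, Bpgm, Arpin, Slc9a9, Eefsec, Fndc7, Tlr11, P2ry14, Naaa and Hepacam2. Noxred1 had 3.93 to 11.4 CPM in DC1a and no count in any DC1b library, at least 70.8-fold lower than the DC1a mean (adjusted p = 0.0404). Tomm40l, which overlaps Nr1i3, had 2.79 to 13.7 CPM in DC1a and a single DC1b library above 0. Bpgm, the bisphosphoglycerate mutase of red cells, had 116, 67.6, 9.69 and 13.8 CPM in DC1a and 3.46, 15.3, 0.634 and 0.164 CPM in DC1b (log2 fold change -3.97, adjusted p = 0.0441). The erythroid markers were also higher in batch 1, and their part in this difference was not tested. Arpin, an inhibitor of actin branching, had 47.4, 88.9, 25.7 and 25.5 CPM in DC1a and 6.91, 19.3, 1.69 and 1.71 CPM in DC1b (adjusted p = 0.0435). P2ry14, a receptor for UDP-glucose, had 155 to 379 CPM in DC1a and 43.7 to 77.0 CPM in DC1b (log2 fold change -2.07, adjusted p = 0.0321). The decreases were smaller and closer to the threshold than the increases: 0 of the 12 passed with the pool as a block and 0 passed in all of the fits without 1 library.

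The remaining lists held few calls, against 1.68% higher and 0.218% lower over all 13761 genes tested. The ribosomal list, with 1.25% higher, lay below that share. A single call in a list is given as a gene and not as a trait of the list. In the list of interferon-induced genes 3 of 29 tested rose (Rtp4, Ifi27l2a and Zbp1), among them Ifi27l2a from 47.5 to 254 CPM in DC1a to 885 to 2029 CPM in DC1b. Among lysosomal genes 3 of 27 rose (Ctss, Lamp2 and Cd68), among transcription factors of dendritic cells 3 of 37 (Bcl6, Klf4 and Cebpb), among immediate early and NF-kB genes 2 of 29 (Klf4 and Nfkbiz), among lipid antigen genes 2 of 19 (Lrp1 and Apoe) and among growth factor receptors 2 of 20 (Csf3r and Tgfbr1). A single member rose among genes of MHC class I presentation (Cybb of 19), receptors for dead cells (Itgb5 of 12), B cells (Cd79b of 6), and cytosolic ribosomal proteins (Rpl3l of 80); adhesion genes had 1 higher (Itgb5) and 1 lower (Itgae) of 28, Toll-like receptor genes 1 higher (Tlr7) and 1 lower (Tlr11) of 20, and chemokine receptors 1 lower (Xcr1) of 11. With the pool as a block, 1 interferon-induced gene (Ifi27l2a), 0 lysosomal genes, 2 transcription factors (Klf4 and Cebpb), 1 immediate early gene (Klf4), 1 lipid antigen gene (Lrp1) and 2 growth factor receptors passed, as did Cybb and Tlr7. Itgb5, Cd79b, Rpl3l, Itgae, Tlr11 and Xcr1 did not pass with it. In edgeR 0 members passed among sorting markers, mature and migratory dendritic cells, cytokines, T cell ligands, p53 targets, DNA replication and cell cycle, glycolysis, plasma cells, T cells, natural killer cells, erythroid cells and respiratory chain subunits. Unadjusted p-values under 0.05 were held there by 4 of 8, 10 of 28, 3 of 16, 4 of 19, 2 of 21, 5 of 40, 8 of 22, 4 of 7, 1 of 11, 1 of 9, 0 of 11 and 2 of 76 members, in that order, and medians were -1.16, 0.10, 0.02, -0.28, 0.30, -0.60, -0.14, 3.18, 1.33, 1.21, 1.65 and 0.14 on the log2 scale.

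The 2 batches were compared next, since the pools fall into them. Tested within each batch in a fit that shared the spread over the 8 libraries, 61 genes passed in batch 1, all of them higher, and 240 in batch 2, 148 higher and 92 lower. All but 2 of the 231 higher genes and 30 of the 30 lower genes had the same sign in both batches, with medians of 4.02 and 4.23 for the higher genes and -3.05 and -4.08 for the lower genes. These genes had passed in a fit over both batches. Their agreement between batches is therefore largely set by that selection and is no separate test. The difference between batches passed for 1 gene (0.00727% of 13761), Mycl, at an unadjusted p under 0.05 for 1670. Mycl, a transcription factor that cDC1 express, had 46.2, 58.0, 62.9 and 75.3 CPM in DC1a and 42.8, 34.4, 0.0906 and 0.0986 CPM in DC1b of pools 1 to 4 (log2 fold change -0.32 in batch 1 and -9.40 in batch 2, adjusted p of the difference 0.0402). In untreated DC1b the pools were at 1.41 and 43.1 CPM.

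The same difference in untreated mice was set beside that after TLI. In the untreated pools 130 of 17765 genes passed (0.732%), 81 higher and 49 lower in DC1b, in a fit that shared the spread over 12 libraries. Of the 231 genes higher after TLI, 211 (91.3%) were also higher in untreated DC1b, against 57.4% of all genes above 0 after TLI, and 54 passed there too. The 211 are counted by the sign of the fitted value alone. They include genes with almost no RNA in untreated DC1b, such as Fn1 at 0.0722 and 0.0976 CPM. Of the 30 lower genes 22 (73.3%) were also lower, against 56.1%, and 7 passed. The difference between the treatments itself passed for 0 genes in edgeR, where 1520 had an unadjusted p under 0.05 and the smallest adjusted p was 0.148, and for 568 in DESeq2.

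Values of some members in the untreated libraries follow, chosen after they were seen. Elane had at most 0.144 CPM in the 2 untreated DC1b libraries and Fn1, fibronectin, at most 0.0976 CPM, against 56.3 to 537 and 75.0 to 162 CPM after TLI, but with almost no counts in DC1a the fitted differences between treatments had unadjusted p = 1.00 and 0.908. Lyz2 was at 1480 and 2579 CPM in untreated DC1b and at 685 and 693 CPM in untreated DC1a, a log2 fold change of 1.56 as compared to 4.14 after TLI (unadjusted p of the difference 1.70e-05, adjusted p = 0.148). Irf8 was at 827 and 712 CPM in untreated DC1b, above the 563 and 466 CPM of untreated DC1a, and at 65.6 to 350 CPM in DC1b after TLI (unadjusted p of the difference 0.00258, not past the threshold after adjustment). The study's staining of IRF8 protein in untreated spleens ran the other way, highest in DC1a and intermediate in DC1b. Plasmacytoid markers were at 4982 and 7237 CPM in untreated DC1b, far above those after TLI, and their part in the Irf8 and Cd4 levels was not tested. Cd4 was at 114 and 129 CPM and Cdh1, E-cadherin, at 32.1 and 28.4 CPM in untreated DC1b, and Cdh1 was at most 0.783 CPM in DC1b after TLI, where it was too low to be tested. The cDC1 genes Naaa, Xcr1 and Cd207 were lower in DC1b in both treatments, with log2 fold changes of -2.59, -2.60 and -2.39 in untreated pools. Of the 12 largest decreases after TLI, Noxred1, Ptdss2, Tomm40l, P2ry14 and Slc9a9 did not fall there. Their untreated log2 fold changes were 9.93, 3.35, 1.31, 0.5 and 0.02. The untreated pools are all of batch 1, so that the batch and the treatment can be separated only through the TLI pools of batch 1. The fit of 12 libraries used TLI pools of both batches, so a DC1b difference that varies with batch enters its difference between treatments. In edgeR on batch 1 alone, the difference between treatments passed for 0 of 16636 genes, with 2220 at an unadjusted p under 0.05.

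**Figure D5:**
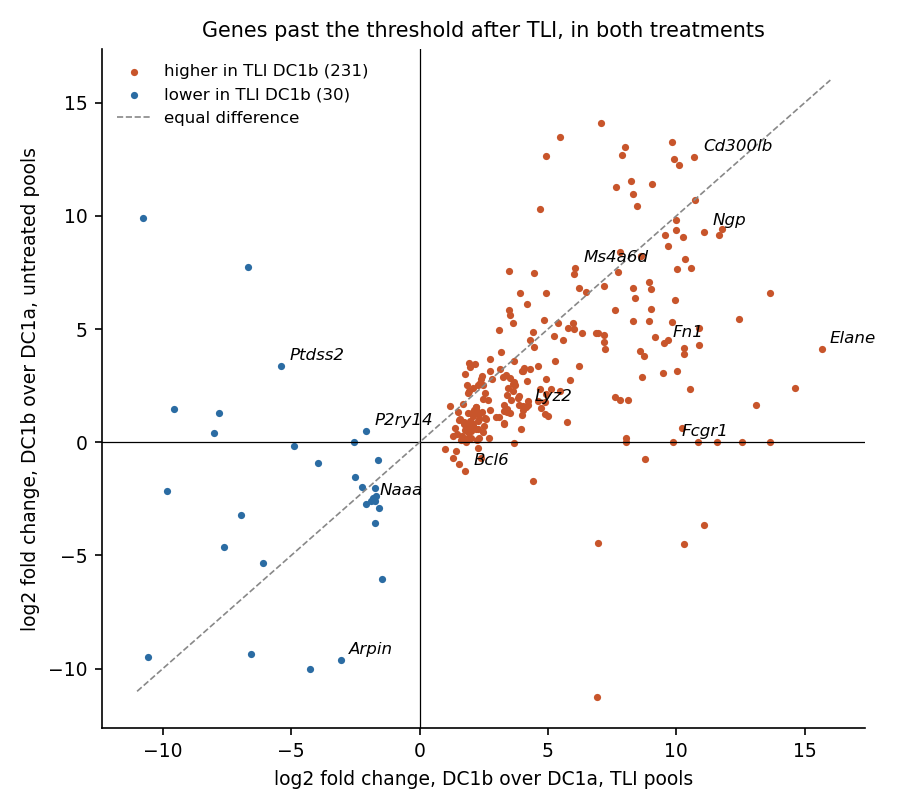
Log2 fold change of DC1b over DC1a in the TLI pools (horizontal axis) and in the untreated pools (vertical axis) for the 261 genes past the threshold after TLI; orange points are higher and blue points lower in TLI DC1b, and the dashed line marks equal differences. Of the 231 higher genes 211 lie above 0 on the vertical axis, while Elane lies far below the dashed line and Bcl6 below 0.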

How the data were processed

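Estimated counts per gene were deposited for each library. Per the paper's methods and the submitters' processing notes, the authors trimmed reads with Trimmomatic, aligned them to mouse genome build GRCm38 with HISAT2 and made the estimated counts, which are whole numbers derived from transcript coverage, with StringTie on an Ensembl annotation. RNA was amplified to cDNA with SMARTseq v4, and no read strand is stated. Low genes were removed by edgeR's filter. The main fit used edgeR 4.0.16 (R 4.3.3; limma 3.58.1) with TMM scaling, the quasi-likelihood test, a term for batch and Benjamini-Hochberg adjustment at 0.05 on the 8 TLI libraries. The untreated difference and the difference between treatments came from a fit on 12 libraries. CPM are the deposited counts scaled to a common library total (per 1e6) with TMM factors over 12 libraries. Fold changes are of DC1b over DC1a. Each SE is the absolute log2 fold change divided by the square root of the F value of the quasi-likelihood test. It therefore restates the test and is no separate measure of the spread between pools. Both populations of a pool come from the same mice by their label, and deviations from the group means correlated at 0.242, 0.327, 0.139 and 0.276 within pools 1 to 4. After the batch mean was also removed the correlations were 0.0698, 0.0698, -0.0128 and -0.0128. Fits with the pool as a block are given beside genes or as counts per list. The 8 libraries held 23074740 to 36997890 counts (median 31019478). Of 47729 gene identifiers 47310 had a symbol. Named genes are the 12 largest changes each way by the rule given beside them, the genes the study stained or named, and up to 4 members of each list with the lowest p. Members and lists were chosen with earlier results of these data known. Alternatives were DESeq2 1.42.0, RLE scaling, other filters, the block, no batch term, other sets of libraries and leaving out each library. The scripts were tested on simulated data. DC2 and DC3 libraries entered only alternatives.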

Additional observations from a re-analysis of the deposited data

Results flagged for a closer look

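Among 110 groups of 4 libraries checked on log2(CPM + 0.1), 4 held a library whose gap to the nearest other exceeded Dixon's 95% critical value as a share of the range, and chance flags about 1 in 20 groups. In TLI DC1b the cDC1 marker sum had a gap of 0.972, with pool 4 lowest at 1347 CPM against 2181, 2212 and 2192 CPM in pools 1 to 3. Itgam in TLI DC1b had a gap of 0.845, with pool 4 lowest at 0.296 CPM. The B cell marker sum in TLI DC1b had a gap of 0.934, with pool 1 highest at 104 CPM. Tomm40l in TLI DC1b had a gap of 1, since pool 1 stood at 0.138 CPM and the other pools at 0. Mycl differed between batches by -9.08 on the log2 scale (adjusted p = 0.0402 in edgeR's quasi-likelihood test), being lower in DC1b than DC1a in 4 of 4 pools, with the values given above.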

How the results depend on the processing

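The 261 calls after TLI became 1280 in DESeq2, 99 with the pool as a block, 163 without the batch term and 0 in batch 1 or batch 2 alone (1801 and 2404 at an unadjusted p under 0.05), and 101 to 180 without 1 library. They were 119 without either library of pool 1, 133 without DC1a and 147 without DC1b of pool 2, 102 without DC1a of pool 3, and 101 without DC1a and 110 without DC1b of pool 4. The 1 call of the batch difference became 663 in DESeq2 and 0 with at least 10 counts in every library or with the block, and it ran from 0 to 66 without 1 library, with 66 without DC1b of pool 4. The 130 calls in untreated pools became 1303 in DESeq2, 359 without a filter, 223 with at least 10 counts and 0 with the block or in the 4 untreated libraries alone, and 1 to 179 without 1 library. The 0 calls of the difference between treatments became 568 in DESeq2, 62 without a filter, 9 with at least 10 counts and 7 with all 23 libraries, and 0 to 2 without 1 library. Of 60 named genes that passed, 60 also passed in DESeq2, 23 with the block and 14 in all of the fits without 1 library, and all 60 kept their sign where tested. The causes were not tested.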
